A study of Homo sapiens with 6 samples.

Results

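The beta-catenin destruction complex and the TCF factors that beta-catenin binds in the nucleus were followed in the colorectal carcinoma line HCT116 with and without PTTG1, the securin gene. The set was 10 genes, namely CTNNB1, APC, AXIN1, GSK3A, GSK3B, CSNK1A1, TCF7, TCF7L2, LEF1 and TLE1. The set was chosen by name, with earlier results of these data known. All probes that the array annotation gives to these genes, under a current or an older symbol, were taken. Of the 10 genes, 9 had a probe, with 19 probes among the 47310 on the array. TCF7, a TCF factor known from T cells, was paired with no probe, so its level was not measured. After the filter for signal above background, 10 of the 19 probes and 6 of the 10 genes were left, of 17357 probes and 10642 genes in all.

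Total RNA from 3 samples of PTTG1-/- cells (labelled PTTG KO) and 3 samples of the parent PTTG1+/+ cells (labelled WT) was hybridised to Illumina HumanHT-12 V4 arrays, each sample to its own array. PTTG1 was removed by homologous recombination. The labels name no agent for either line, and both were grown in standard culture. HCT116 cells carry an activating mutation on one CTNNB1 allele and intact APC, so both lines share a beta-catenin that partly escapes the destruction complex. The knockout is represented by a single cell line, so PTTG1 and any other difference between the lines cannot be told apart. Nothing says whether the 3 samples of a line were separate cultures, so a p-value here reflects the spread among the hybridised samples alone, which may be technical.

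In cells without a Wnt signal, APC and AXIN1 hold beta-catenin beside 2 kinds of kinase, CK1 and GSK3, which phosphorylate it and mark it for ubiquitin and the proteasome. A Wnt signal stops the complex, and the beta-catenin that then builds up enters the nucleus and binds TCF and LEF proteins at their target genes. Without beta-catenin, the same TCF proteins carry corepressors of the Groucho family, of which TLE1 is a member. In the intestine the pathway keeps crypt cells dividing, and in most colorectal tumours it is switched on by mutation. Most of the control on beta-catenin acts on its protein, which arrays do not read.

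The PTTG1-/- line differed from the PTTG1+/+ line in 2 of the 6 measured genes, beside 17.4% of all genes tested. The corepressor TLE1 was 1.43-fold higher in PTTG1-/- cells and the kinase GSK3B 1.22-fold higher. CTNNB1, AXIN1, CSNK1A1 and TCF7L2 did not pass the test. No member was lower at an adjusted p under 0.05, the threshold for a call. The count of 2 did not hold under every setting. It was 0 with the replicate number as a block and 0 without PTTG1-/- replicate 1, PTTG1+/+ replicate 1 or PTTG1+/+ replicate 2, and 1 without PTTG1-/- replicate 2 or PTTG1+/+ replicate 3. GSK3A, APC and LEF1 were not above background on any of the 6 arrays.

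The promoters of GSK3B and TLE1 are shown because these were the members that differed. Each is the 250 bases before the transcript start from RefSeq on GRCh38.p14, read in the direction of transcription. Capitals mark the GC box GGGCGG and the CCAAT box CCAAT, searched on both strands, so that CCGCCC and ATTGG are the same boxes on the other strand. The GSK3B window is chr3:120094448-120094697 on the minus strand and the TLE1 window is chr9:81689548-81689797 on the minus strand.
GSK3B: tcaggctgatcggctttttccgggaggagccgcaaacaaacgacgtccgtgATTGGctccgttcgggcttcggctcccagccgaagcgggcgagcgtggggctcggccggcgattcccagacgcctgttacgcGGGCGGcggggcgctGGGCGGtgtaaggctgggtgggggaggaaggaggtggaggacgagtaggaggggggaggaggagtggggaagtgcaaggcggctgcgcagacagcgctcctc
TLE1: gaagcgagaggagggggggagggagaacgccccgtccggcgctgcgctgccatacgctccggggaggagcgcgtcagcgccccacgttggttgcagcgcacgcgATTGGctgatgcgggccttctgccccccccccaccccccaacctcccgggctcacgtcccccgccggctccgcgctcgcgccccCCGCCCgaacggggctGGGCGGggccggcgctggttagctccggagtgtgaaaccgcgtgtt
The GSK3B window was 68.8% G and C with 27 CpG, and the TLE1 window was 75.2% with 33 CpG. The median over 35114 promoters was 58% with 11 CpG. Each of the GSK3B and TLE1 windows held 2 GC boxes and 1 CCAAT box. In GSK3B the GC boxes lay 97 to 102 and 112 to 117 bases before the start, and the CCAAT box 195 to 199 bases before it. In TLE1 the GC boxes lay 41 to 46 and 57 to 62 bases before the start, and the CCAAT box 142 to 146 bases before it. This count of boxes, noticed after the sequences were seen, was present in 2.07% of the promoters. Over the 15 windows of all 10 genes, the GC box was in 10, against 42.6% of all promoters, and the CCAAT box in 5, against 32%. The TATA box TATAAA was in 1 member window, a TCF7 window, against 10.7% of promoters, and the E-box CACGTG in 1, an APC window, against 6.35%. CTTTGA, a form of the core that TCF and LEF proteins bind, was in 0 of the 15 windows, against 11.2% of all promoters. Other forms of this core, such as CTTTGT, were not searched, so the windows are not shown to lack it. A match describes the letters of a window and no binding was measured.

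Across all genes, 1847 of 10642 were called, which is 17.4%, at an adjusted p under 0.05 by limma's moderated test with Benjamini-Hochberg adjustment. Of them, 1019 (9.58%) were higher and 828 (7.78%) were lower in PTTG1-/- cells. Among the members 2 of 6 were called, both higher. The median difference of the 6 members was 0.18 on the log2 scale, and over all genes it was 0.00. The members' median was 0.02 with the mean of each gene's probes and 0.10 without PTTG1-/- replicate 3, and lay between 0.02 and 0.24 over the alternatives. The members were positive in 4 of 6 cases, and 50.2% of all genes were positive. In 36.1% of all genes the 3 PTTG1-/- arrays and the 3 PTTG1+/+ arrays did not overlap, which held for 2 of the 6 members, TLE1 and GSK3B. With 6 genes these shares describe the set and were not tested against the rest.

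**Figure D1:**
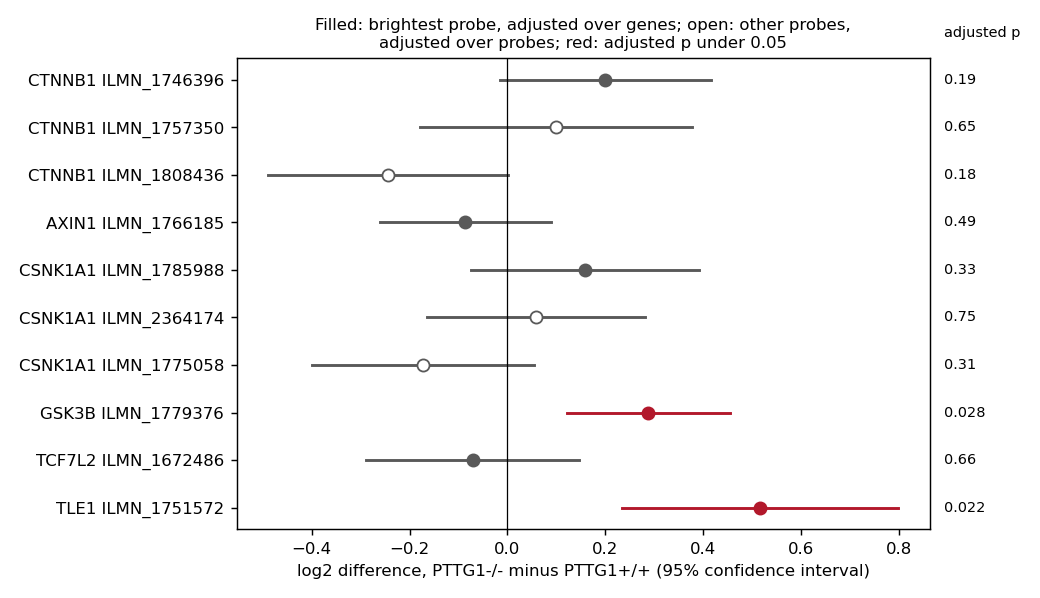
Difference in log2 intensity, PTTG1-/- minus PTTG1+/+, for each of the 10 member probes above background, with 95% confidence intervals and adjusted p at the right. The intervals of TLE1 (0.23 to 0.80) and GSK3B (0.12 to 0.45) lie above 0, and the intervals of the other brightest probes include 0.

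The knockout and the arrays were checked on the same values. PTTG1 probe ILMN_1753196 read 5.04, 4.83 and 5.02 in PTTG1-/- cells, not above background on any of these arrays, against 10.77, 10.76 and 10.84 in PTTG1+/+ cells. The PTTG1-/- level was lower by at least 49.3-fold. The adjusted p over probes of 2.31e-09 (limma) compares readings at background with the PTTG1+/+ arrays and does not belong to the bound. The other PTTG1 probe, ILMN_2042771, stayed bright, at 11.31, 11.19 and 10.88 in PTTG1-/- cells and 11.98, 12.02 and 12.09 in PTTG1+/+ cells, 1.87-fold lower. The bound sets the PTTG1+/+ mean against the dimmest signal above background on each PTTG1-/- array. It depends on the background correction, and was 23.6-fold without one, 19.9-fold with normexp and 24.9-fold on the authors' normalized values. Where these probes lie relative to the deleted part is not given in the sources used here. The summed intensity was 14796418.5 to 16708424.9 in PTTG1-/- arrays, highest in replicate 3, and 14804249.4 to 15565150.9 in PTTG1+/+ arrays. Between 35.7% and 37.3% of probes were above background. Arrays of the same line correlated at 0.993 to 0.996 across the genes tested, and arrays of different lines at 0.986 to 0.988, where genes are not independent replicates. The epithelial markers EPCAM, KRT8, KRT18, KRT19 and CDH1 were above background, while CLDN4 and VIL1 were not. For each marker list the normalized values, taken off the log scale, were summed over all probes, kept or not. The sum of the 7 epithelial markers was 16850 to 18420 in PTTG1-/- cells and 18300 to 19320 in PTTG1+/+ cells. Of 6 fibroblast markers, 5 were under the filter, with sums of 279.7 to 294.5 in PTTG1-/- cells and 283.6 to 304.5 in PTTG1+/+ cells. Of 6 blood cell markers only CD68, a lysosomal protein of macrophages, was measured, and the sums were 690.6 to 763.3 in PTTG1-/- cells and 541.3 to 582.7 in PTTG1+/+ cells. Of the 11 fibroblast probes 1 was kept, and of the 11 blood cell probes 3, so both sums include many readings near background. PTPRC, the pan-leukocyte surface phosphatase, was not above background. The part of these markers in the results below was not tested.

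**Figure D2:**
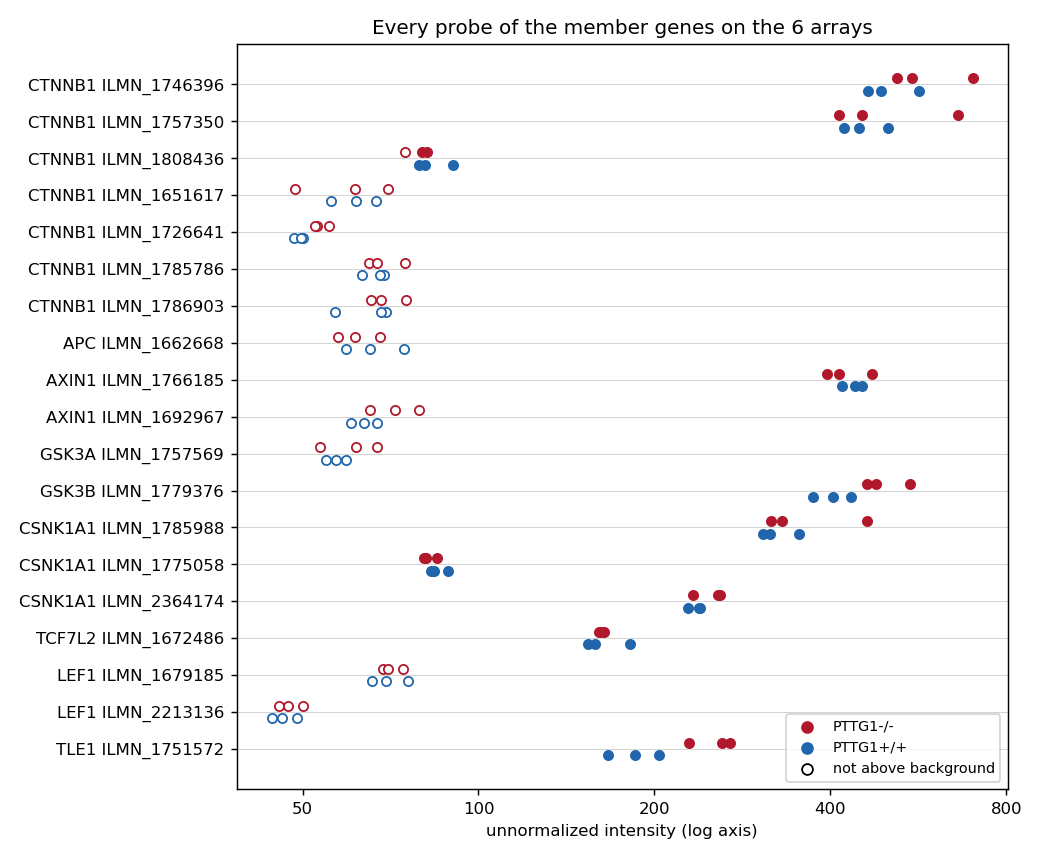
Unnormalized intensity (log axis) of all 19 member probes on the 6 arrays, with PTTG1-/- arrays in red above PTTG1+/+ arrays in blue. Open circles are readings not above background, and 9 probes are open on all 6 arrays, among them the only probes of APC, GSK3A and LEF1.

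Beta-catenin, the transcriptional coactivator that the complex destroys and the partner of cadherins at cell junctions, was read by 7 probes, of which 3 passed the filter. CTNNB1 probe ILMN_1746396, its brightest, read 9.10, 8.93 and 9.19 in PTTG1-/- cells, against 9.0, 8.80 and 8.82 in PTTG1+/+ cells, as normalized log2 intensity. One PTTG1+/+ array lay among the PTTG1-/- arrays, and the groups overlapped. The difference was 0.20 (SE 0.095, 95% interval -0.02 to 0.41), a fold of 1.15 with an interval of 0.989 to 1.33 (limma, adjusted p = 0.190). The exact permutation test gave p = 0.2, and 0.1 is the smallest two-sided p that 3 against 3 arrays can give. The interval reaches a CTNNB1 rise of 1.33-fold, and with the mean of the 3 CTNNB1 probes the difference was 0.02.

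The other CTNNB1 probes gave smaller or opposite differences. CTNNB1 probe ILMN_1757350 read 8.64, 8.72 and 9.10 in PTTG1-/- cells and 8.81, 8.65 and 8.70 in PTTG1+/+ cells, a difference of 0.10 (limma, adjusted p over probes = 0.653). The PTTG1-/- mean was raised by replicate 3, the array with the highest summed intensity, and without it the difference was -0.04. CTNNB1 probe ILMN_1808436, a dim probe above background on 2 of 3 PTTG1-/- arrays and 3 of 3 PTTG1+/+ arrays, read 5.07, 5.31 and 5.20 in PTTG1-/- cells and 5.27, 5.43 and 5.61 in PTTG1+/+ cells. Its difference was -0.24 (limma, adjusted p over probes = 0.177). Whether the CTNNB1 probes responded unequally was tested on the difference between probes on each array. The gap between ILMN_1746396 and ILMN_1808436 was 0.44 larger in PTTG1-/- cells (exact permutation test, p = 0.2), that between ILMN_1757350 and ILMN_1808436 0.34 larger (p = 0.2), and that between the 2 bright probes 0.10 larger (p = 0.6). The groups overlapped in all 3 cases. The remaining CTNNB1 probes, ILMN_1785786, ILMN_1786903, ILMN_1651617 and ILMN_1726641, were not above background on any array. A probe at background does not show that the RNA is absent.

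**Figure D3:**
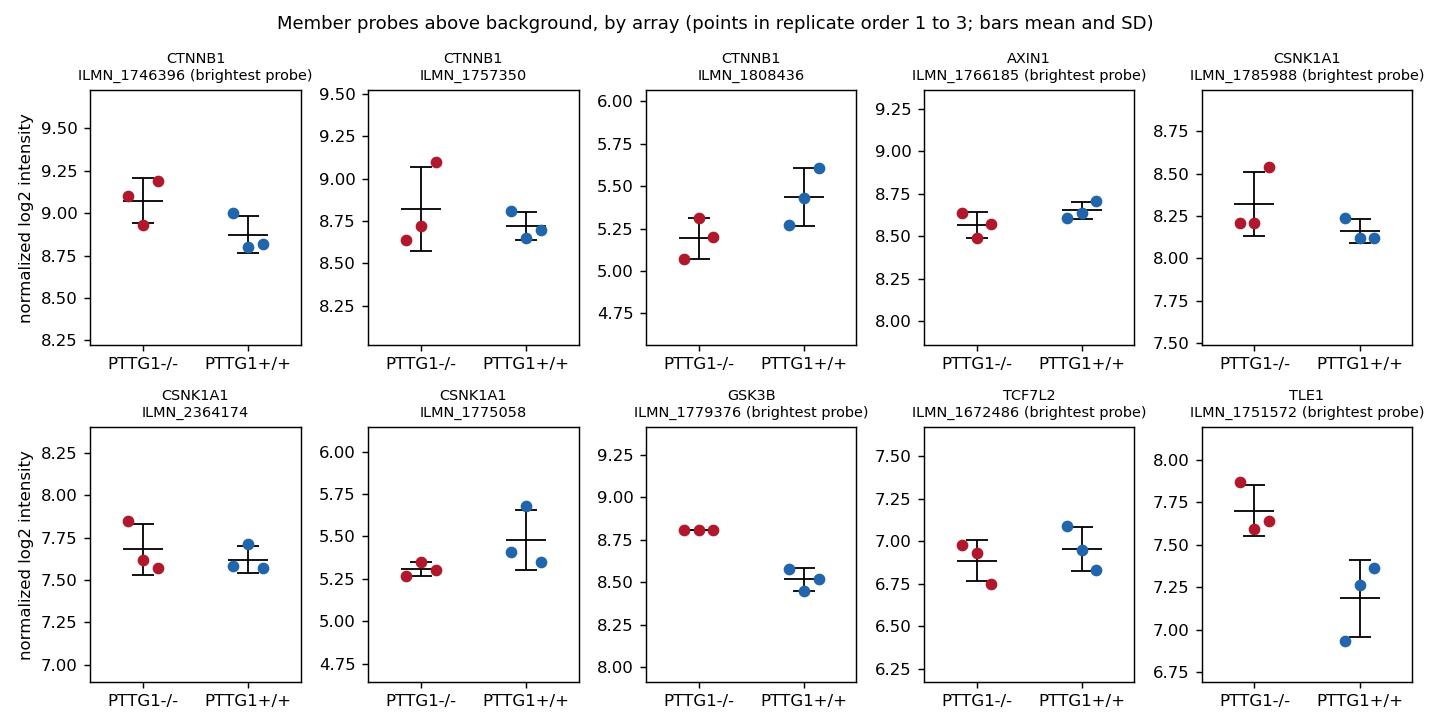
Normalized log2 intensity of the 10 member probes above background, 1 panel a probe, with PTTG1-/- arrays at the left and PTTG1+/+ arrays at the right and bars for mean and SD (n = 3). The groups are apart for GSK3B and TLE1 and overlap for the other 8 probes.

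The scaffolds of the complex showed no called difference. AXIN1, the scaffold that is thought to limit how much complex forms, read 8.64, 8.49 and 8.57 in PTTG1-/- cells and 8.61, 8.64 and 8.71 in PTTG1+/+ cells at probe ILMN_1766185. The arrays of both lines overlapped. The difference was -0.09 (SE 0.077, interval -0.26 to 0.09), a fold of 0.942 with an interval of 0.835 to 1.06 (limma, adjusted p = 0.492). A second AXIN1 probe, ILMN_1692967, was not above background. APC, the tumour suppressor mutated in most colorectal cancers, had 1 probe, ILMN_1662668, with unnormalized intensities of 61.4, 57.6 and 67.9 in PTTG1-/- cells and 59.3, 65.3 and 74.6 in PTTG1+/+ cells. All of these APC readings were at the level of the negative controls, and APC was not compared. A test of AXIN1 against APC on each array could not be made for that reason.

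GSK3B, the kinase that phosphorylates beta-catenin after CK1 has primed it, was higher in PTTG1-/- cells. Its probe ILMN_1779376 read 8.81, 8.81 and 8.81 in PTTG1-/- cells, against 8.58, 8.45 and 8.52 in PTTG1+/+ cells. Every PTTG1-/- array was above every PTTG1+/+ array, and the same held for the unnormalized intensities of 461.4, 478.0 and 548.2 in PTTG1-/- cells and 433.5, 374.1 and 404.1 in PTTG1+/+ cells. The difference was 0.29 (SE 0.074, interval 0.12 to 0.45), a 1.22-fold rise with an interval of 1.09 to 1.37 (limma, adjusted p = 0.0275). Over single probes the adjusted p of GSK3B was 0.0430, where 12.7% of all probes were called, 6.87% higher and 5.85% lower, and the exact permutation test gave 0.1. The 3 PTTG1-/- values of GSK3B were closer to each other than those of any other member probe, and limma draws the spread of each gene towards that of all genes. The GSK3B call was lost without any 1 array other than PTTG1-/- replicate 3. Its adjusted p was 0.0689 without PTTG1-/- replicate 1, 0.0776 without PTTG1-/- replicate 2, 0.0518 without PTTG1+/+ replicate 1, 0.119 without PTTG1+/+ replicate 2 and 0.0742 without PTTG1+/+ replicate 3, while the difference stayed between 0.25 and 0.32. Without normalization between arrays the adjusted p of GSK3B was 0.110.

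GSK3A, the paralog that can stand in for GSK3B in the complex, was at background. Its probe ILMN_1757569 gave intensities of 61.7, 53.6 and 67.1 in PTTG1-/- cells and 59.3, 57.0 and 54.9 in PTTG1+/+ cells. Whether the 2 kinases differed in response could not be tested.

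CSNK1A1 encodes CK1 alpha, the kinase that places the first phosphate on beta-catenin. Its brightest probe, ILMN_1785988, read 8.21, 8.21 and 8.54 in PTTG1-/- cells and 8.24, 8.12 and 8.12 in PTTG1+/+ cells. Replicate 3 of PTTG1-/- cells stood above the rest, and the groups overlapped. The difference was 0.16 (SE 0.10, interval -0.07 to 0.39), a fold of 1.12 with an interval of 0.950 to 1.31 (limma, adjusted p = 0.334). Without PTTG1-/- replicate 3 the CSNK1A1 difference was 0.05, and with the mean of its probes 0.01. CSNK1A1 probe ILMN_2364174 read 7.85, 7.62 and 7.57 in PTTG1-/- cells and 7.58, 7.71 and 7.57 in PTTG1+/+ cells, a difference of 0.06 (adjusted p over probes = 0.754), which was -0.03 without PTTG1-/- replicate 1. The dim probe ILMN_1775058 read 5.27, 5.35 and 5.30 in PTTG1-/- cells and 5.41, 5.68 and 5.35 in PTTG1+/+ cells, a difference of -0.17 (adjusted p over probes = 0.308).

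No CSNK1A1 probe was called by itself. The gaps between probes did not overlap between the lines in 2 of 3 cases, and both of these use the dim probe ILMN_1775058. How often such gaps do not overlap in other genes was not counted. For single genes the share was 36.1% of all tested. The gap between CSNK1A1 probes ILMN_1785988 and ILMN_1775058 was 2.94, 2.86 and 3.23 in PTTG1-/- cells and 2.83, 2.44 and 2.78 in PTTG1+/+ cells, 0.33 larger in PTTG1-/- cells (exact permutation test, p = 0.1). The gap between ILMN_2364174 and ILMN_1775058 was 2.58, 2.27 and 2.26 in PTTG1-/- cells and 2.17, 2.03 and 2.23 in PTTG1+/+ cells, 0.23 larger (exact permutation test, p = 0.1). The gap between ILMN_1785988 and ILMN_2364174 was 0.10 larger with overlap (exact permutation test, p = 0.8). These are 2 of 6 such gaps compared among the probes of CTNNB1 and CSNK1A1, and 0.1 is the smallest p that the design allows, so none of them could pass 0.05. The annotation gives ILMN_1785988 and ILMN_1775058 the same transcript and ILMN_2364174 another.

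Of the TCF factors, 1 was measured. TCF7L2, the main TCF protein of the intestinal epithelium, read 6.98, 6.93 and 6.75 in PTTG1-/- cells and 7.09, 6.95 and 6.83 in PTTG1+/+ cells at probe ILMN_1672486. The lines overlapped, and the lowest reading was in PTTG1-/- cells. The difference was -0.07 (SE 0.096, interval -0.29 to 0.15), a fold of 0.952 with an interval of 0.819 to 1.11 (limma, adjusted p = 0.660). Leaving out 1 array gave TCF7L2 differences of -0.13 (PTTG1+/+ replicate 3) to -0.0037 (PTTG1-/- replicate 3). LEF1, a TCF family factor that is itself often induced by Wnt signals, was not above background on any array at either of its 2 probes, ILMN_1679185 and ILMN_2213136. A comparison of TCF7 with TCF7L2 could not be made.

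TLE1, which binds TCF proteins and recruits histone deacetylases to their target genes, had the largest difference of the 6 measured members. Its probe ILMN_1751572 read 7.87, 7.59 and 7.64 in PTTG1-/- cells, against 6.93, 7.26 and 7.36 in PTTG1+/+ cells. All PTTG1-/- arrays were above all PTTG1+/+ arrays, and PTTG1+/+ replicate 1 was the lowest. The unnormalized intensities were 261.2, 229.0 and 269.9 in PTTG1-/- cells and 166.5, 185.4 and 203.9 in PTTG1+/+ cells, also without overlap. The difference was 0.52 (SE 0.125, interval 0.23 to 0.80), a 1.43-fold rise with an interval of 1.18 to 1.74 (limma, adjusted p = 0.0222). Over single probes the adjusted p of TLE1 was 0.0306, and the exact permutation test gave 0.1. The TLE1 call was lost without PTTG1-/- replicate 1 (adjusted p = 0.0687), PTTG1+/+ replicate 1 (0.0628) or PTTG1+/+ replicate 2 (0.0507), with differences of 0.39 to 0.61 over the 6 omissions. By the methods' t-test the TLE1 adjusted p was 0.137.

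**Figure D4:**
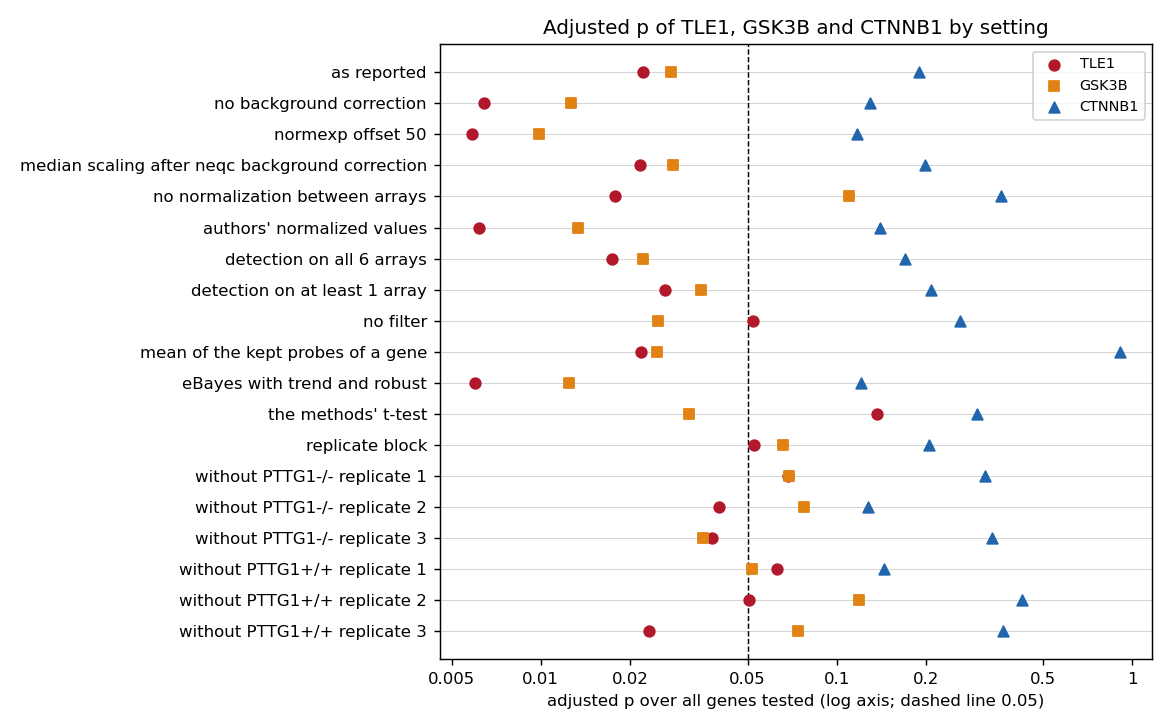
Adjusted p over all genes (log axis) of TLE1, GSK3B and CTNNB1 under the reported setting and each of 18 alternatives, with a dashed line at 0.05. CTNNB1 lies right of the line in all 18, TLE1 crosses it in 6 and GSK3B in 7.

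Of the other corepressors of the Groucho family, TLE5 was named because it was called, and the rest were named after their values were seen. TLE5, the short family member that lacks most of the protein and can oppose the others, was higher in PTTG1-/- cells. It read 10.27, 10.25 and 10.15 in PTTG1-/- cells and 10.02, 9.87 and 9.92 in PTTG1+/+ cells, a difference of 0.29 (SE 0.079, limma, adjusted p = 0.0359). The TLE5 call was lost without any 1 array other than PTTG1-/- replicate 3, with adjusted p-values of 0.0541 to 0.139, and over single probes neither of its 2 probes passed (adjusted p = 0.0535 and 0.0619). TLE2 differed by 0.27 (adjusted p = 0.0610) and TLE3 by 0.41 (adjusted p = 0.0657). Neither passed. The arrays of TLE2 and TLE3 did not overlap between the lines, which held for 36.1% of all genes. The TLE3 readings were 6.13, 6.47 and 5.87 in PTTG1-/- cells and 5.74, 5.77 and 5.72 in PTTG1+/+ cells, with the wider spread in PTTG1-/- cells. Without PTTG1-/- replicate 3 the adjusted p was 0.0140 for TLE3 and 0.0266 for TLE2. That omission also raised the number of called genes in all from 1847 to 2183. TLE4 was not above background.

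Of 19 further genes of the destruction complex and its inputs, 14 could be tested. There were 3 rises and 1 fall among them, 10 genes missed the threshold, and the median difference was 0.03. This was 28.6% called, against 17.4% of all genes. This list and those below were chosen with earlier results of these data known, so their shares describe the lists and were not tested. CSNK1E, CK1 epsilon, which phosphorylates Dishevelled, read 10.78, 10.62 and 10.48 in PTTG1-/- cells and 10.12, 10.20 and 10.38 in PTTG1+/+ cells, a difference of 0.40 (SE 0.10, limma, adjusted p = 0.0288). Its second probe read 9.35, 9.64 and 9.50 in PTTG1-/- cells and 8.98, 8.85 and 8.92 in PTTG1+/+ cells, a difference of 0.58 (adjusted p over probes = 0.00593). Both CSNK1E probes were higher on every PTTG1-/- array, where 36.1% of all genes did not overlap between the lines.

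AMER1, a membrane scaffold that binds APC, read 6.51, 6.48 and 6.53 in PTTG1-/- cells and 5.97, 6.15 and 6.26 in PTTG1+/+ cells, a difference of 0.38 (limma, adjusted p = 0.0186). The AMER1 difference was 0.22 with normexp, 0.25 without background correction and 0.26 on the authors' values, and stayed called. DVL3, a Dishevelled protein that carries the Wnt signal to AXIN1, read 7.55, 7.63 and 7.56 in PTTG1-/- cells and 7.26, 7.23 and 7.32 in PTTG1+/+ cells, a difference of 0.31 (adjusted p = 0.0193). Neither gene overlapped between the lines, which held for 36.1% of all genes. FRAT2, which binds GSK3 and takes it from AXIN1, fell. It read 7.40, 7.51 and 7.58 in PTTG1-/- cells and 7.88, 8.07 and 7.89 in PTTG1+/+ cells, a difference of -0.45 (SE 0.088, adjusted p = 0.00896). Leaving out any single array kept the FRAT2 call. It ended the call of CSNK1E for 4 of the 6 arrays (all but replicate 3 of either line, adjusted p = 0.0757 to 0.101), and those of AMER1 (0.0528 to 0.0628) and DVL3 (0.0633 to 0.0862) for PTTG1-/- replicate 2 and PTTG1+/+ replicates 1 and 2. The brightest of these genes were subunits of phosphatase PP2A, PPP2CA and PPP2R1A, each with a difference of 0.02 that was not called and took the other sign under some settings. AXIN2, the second Axin and a classical readout of the pathway, was chosen after its values were seen. It read 6.73, 6.85 and 6.96 in PTTG1-/- cells and 7.17, 7.10 and 7.07 in PTTG1+/+ cells, without overlap, as in 36.1% of all genes. Its difference of -0.27 did not pass (limma, adjusted p = 0.0611). Without PTTG1-/- replicate 3 the AXIN2 value was 0.0271, in a setting where 2183 genes were called in all, against 1847.

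Genes of ubiquitin transfer and Axin turnover included no called rise. Of 9 measured among 11, 1 fell and 8 did not pass, 11.1% called against 17.4% of all genes, with a median of -0.04. SIAH1, a ubiquitin ligase that can target beta-catenin, read 9.65, 9.81 and 9.86 in PTTG1-/- cells and 10.08, 10.11 and 10.07 in PTTG1+/+ cells, a difference of -0.31 (limma, adjusted p = 0.0289). The second SIAH1 probe differed by -0.28 without passing (adjusted p over probes = 0.0653), and the call of SIAH1 was lost without any 1 array other than PTTG1-/- replicate 3 (0.0667 to 0.104). RBX1, the RING subunit of the SCF ligase, differed by -0.04 and was not called.

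Of 21 nuclear partners of beta-catenin and TCF other than the members, 17 were measured, with 1 rise (TLE5), 1 fall and 15 not called. This was 11.8% called, against 17.4% of all genes, with a median of 0.02. HDAC2, a histone deacetylase found with Groucho corepressors, read 10.65, 10.65 and 10.93 in PTTG1-/- cells and 11.13, 11.19 and 11.07 in PTTG1+/+ cells, a difference of -0.39 (limma, adjusted p = 0.0240). The HDAC2 call was lost for 4 of the 6 single arrays, all but replicate 3 of either line (0.0717 to 0.0917). HDAC1, its paralog, differed by 0.13 and was not called.

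Of 7 adhesion partners, 5 were measured and 1 was called, which is 20%, against 17.4% of all genes. CDH1, E-cadherin, which holds beta-catenin at the membrane, read 8.60, 8.77 and 8.85 in PTTG1-/- cells and 9.23, 9.29 and 9.29 in PTTG1+/+ cells. It fell in PTTG1-/- cells by 0.53 on the log2 scale (SE 0.086, limma, adjusted p = 0.00398), and every alternative and every omission of 1 array kept this call. CTNNA1, alpha-catenin, differed by -0.06 and JUP, gamma-catenin, by 0.04, and neither was called. The epithelial marker EPCAM also fell, with 11.94, 11.96 and 12.18 in PTTG1-/- cells and 12.37, 12.34 and 12.32 in PTTG1+/+ cells, a difference of -0.32 (adjusted p = 0.0339), a call lost without any 1 array other than PTTG1-/- replicate 3 (0.0765 to 0.110). The other EPCAM probes differed by -0.68 (adjusted p over probes = 0.0117) and -0.48 (0.0518), and the mean of the EPCAM probes gave -0.49. KRT19, an epithelial keratin, differed by 0.23 and did not pass (adjusted p = 0.0525), although 9 of 18 alternatives called it higher.

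**Figure D5:**
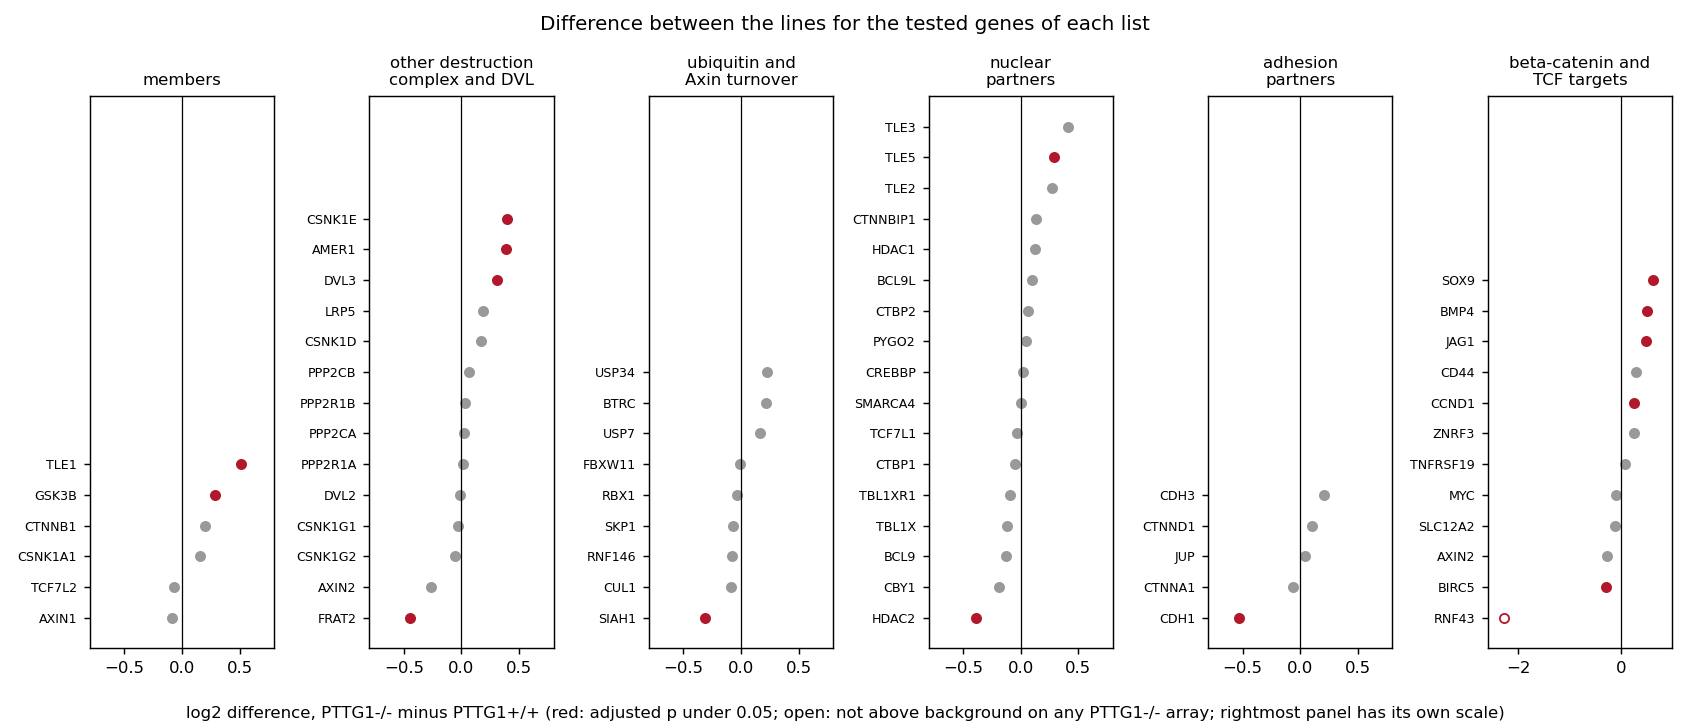
Log2 difference, PTTG1-/- minus PTTG1+/+, of every tested gene in the member set and the 5 pathway lists, with genes of adjusted p under 0.05 in red and RNF43 open because it was not above background on any PTTG1-/- array. Called genes lie on both sides of 0 in 3 of the 6 panels, and the rightmost panel has a wider scale.

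Of 20 known targets of beta-catenin and TCF, 12 could be tested, with 4 rises, 2 falls and 6 genes not called. This was 50% called, against 17.4% of all genes (9.58% higher and 7.78% lower), with a median difference of 0.16. Of the 6 not called, AXIN2 (-0.27, also in the list of further complex genes above), SLC12A2 (-0.11) and MYC (-0.09) were negative. CD44 (0.30), ZNRF3 (0.25) and TNFRSF19 (0.08) were positive. The list was chosen with earlier results of these data known, so its share describes the list and was not tested. Both falls carry a limit given with the genes, and with detection required on all 6 arrays 1 target was called lower. SOX9, a transcription factor of crypt stem and progenitor cells, read 10.55, 10.63 and 10.63 in PTTG1-/- cells and 10.05, 10.01 and 9.89 in PTTG1+/+ cells, a difference of 0.62 (SE 0.078, limma, adjusted p = 0.00106) kept under every alternative. BMP4, a secreted BMP ligand, read 6.46, 6.45 and 6.66 in PTTG1-/- cells and 5.91, 6.10 and 6.03 in PTTG1+/+ cells, a difference of 0.51 (adjusted p = 0.00611). The BMP4 difference was 0.29 with normexp, 0.33 without background correction and 0.33 on the authors' values. JAG1, a Notch ligand, read 8.20, 8.06 and 7.94 in PTTG1-/- cells and 7.46, 7.58 and 7.67 in PTTG1+/+ cells, a difference of 0.50 (adjusted p = 0.00763). None of these 3 overlapped between the lines, which held for 36.1% of all genes.

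CCND1, cyclin D1, was very bright, with 12.85, 12.74 and 12.85 in PTTG1-/- cells and 12.55, 12.57 and 12.53 in PTTG1+/+ cells, a difference of 0.27 (limma, adjusted p = 0.0368). Without any 1 of the 6 arrays the CCND1 call was lost (0.0526 to 0.108). CD44, a hyaluronan receptor, differed by 0.30 and did not pass (adjusted p = 0.0572). The second CD44 probe differed by 0.43 and passed (adjusted p over probes = 0.0224), and 6 of 18 alternatives called CD44 higher. For SLC12A2, a second probe differed by -0.43 and also passed (adjusted p over probes = 0.0372), while its brightest probe, at -0.11, did not. RNF43, a membrane ligase that removes Frizzled receptors, was not above background on any PTTG1-/- array, at 4.66, 4.69 and 4.67, against 6.87, 6.96 and 7.05 in PTTG1+/+ cells. The PTTG1-/- level was lower by at least 3.47-fold, and RNF43 passed the filter through its PTTG1+/+ arrays alone. Its adjusted p of 5.69e-07 (limma) compares readings at background with the PTTG1+/+ arrays and does not belong to the bound. The RNF43 bound was 2.17-fold without background correction, 1.98-fold with normexp and 2.21-fold on the authors' values. BIRC5, survivin, was the other gene called lower and was named after its values were seen. Its difference was -0.29 (adjusted p = 0.0496), its second probe differed by 0.01, the mean of both was -0.14, and its call was lost without any 1 array (0.0586 to 0.164).

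CD68, of the blood cell markers, read 8.25, 8.12 and 8.13 in PTTG1-/- cells and 7.67, 7.54 and 7.61 in PTTG1+/+ cells, a difference of 0.56 (limma, adjusted p = 0.00192). Its other probes differed by 0.46 (adjusted p over probes = 0.0395) and 0.37 (0.149, not called). COL1A1, the only fibroblast marker measured, differed by -0.15 and was not called. The labels name cultured cells alone, and the part of these genes in the differences of TLE1 and GSK3B was not tested.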

How the data were processed

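Total RNA of 3 PTTG1-/- and 3 PTTG1+/+ HCT116 samples was labelled with biotin and hybridised to Illumina HumanHT-12 V4 arrays. The authors processed the arrays with the manufacturer's standard protocol and Partek 6.5, and the scanner software is not given in the sources used here. The deposited table holds unnormalized intensity per probe and a fraction, headed as a detection p-value, that rises with intensity. A detection p was therefore taken as 1 minus this fraction. The deposited log2 values, which appeared quantile normalized, served as an alternative only.

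Intensities were background corrected and quantile normalized by neqc (offset 16) in limma 3.58.1 under R 4.3.3. Because the background is estimated from the detection values and not from control probes, low intensities are the most affected. Probes with a detection p under 0.05 on at least 3 of 6 arrays were kept (17357 of 47310), and 12 lines without a probe name were left out. Symbols came from GEO's platform annotation, updated by gene identifier (30068 probes) or accession (18), with 21 old symbols kept. Of the probes, 30107 had 1 gene, 8 had several and 17195 were unnamed here. A gene was represented by its brightest kept probe. A linear model with empirical Bayes moderation compared the lines, 3 against 3 arrays, without covariates, over all 10642 genes, and the same model was run over single probes. P-values are two-sided with Benjamini-Hochberg adjustment. Single values were compared by exact two-sided permutation tests. Fits were tested on simulated data.

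The named genes were all members, PTTG1, up to 4 called genes of each list by smallest p, and the 2 genes with the highest mean level of each list. The remaining targets not called were added after their values were seen. The members, lists and tests were chosen with earlier results of these data known. Alternatives covered background correction, scaling, filter, probe choice, test, replicate block and each array left out. Promoters are from RefSeq (GRCh38.p14). Arrays give no read depth, and their number, 3 for each line, limits the precision.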

Additional observations from a re-analysis of the deposited data

How the results depend on the processing

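The differences of MYC, SLC12A2, ZNRF3 and TNFRSF19 were not followed over the alternatives. Over 45 of the named differences, 790 of 798 values under alternative settings kept their direction. The 8 that turned were small and never called. They were the CSNK1A1 probe ILMN_2364174 at -0.0288 without PTTG1-/- replicate 1 (-0.0288 to 0.115 over the 6 omissions), the CTNNB1 probe ILMN_1757350 at -0.0394 without PTTG1-/- replicate 3 (-0.0394 to 0.188), PPP2R1A at -0.0015 with median scaling and -0.0363 without PTTG1+/+ replicate 3 (-0.0363 to 0.0664), PPP2CA at -0.0900 with the mean of a gene's probes and -0.0094 without PTTG1-/- replicate 1 (-0.0094 to 0.0529), JUP at -0.0429 with the mean of a gene's probes, and COL1A1 at 0.0145 without PTTG1+/+ replicate 2 (-0.339 to 0.0145).

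Called member genes numbered 2, both higher. The count was 1 without normalization between arrays, 1 without a filter, 1 with the methods' t-test, 0 with the replicate block, and 0 to 2 when 1 array was left out. Called member probes numbered 2, and 1 without normalization between arrays, 1 with detection on at least 1 array, 1 without a filter, 1 with the methods' t-test, 0 with the replicate block, and 0 to 1 when 1 array was left out. Called genes in all numbered 1847, against 1044 without normalization between arrays, 931 with the methods' t-test (2924 at an unadjusted p under 0.05), and 1009 to 2183 when 1 array was left out. The lower counts were 1093 without PTTG1-/- replicate 2, 1026 without PTTG1+/+ replicate 1 and 1009 without PTTG1+/+ replicate 2. The count of 2183 came without PTTG1-/- replicate 3, the only omission that raised it. Calls kept or gained under that omission are read beside this rise. No setting called a member gene lower. The cause of these changes was not tested, beyond fewer arrays in the omissions.

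The replicate numbers did not pair the samples. Deviations of same-numbered arrays correlated at -0.07, -0.0040 and -0.12, and not every array correlated best with its own number. With the replicate block 1345 genes were called, with TLE1 at an adjusted p of 0.0525 and GSK3B at 0.0658. Without a filter the TLE1 value was 0.0520. The CTNNB1 difference was 0.02 to 0.27 over the 18 alternatives, lowest with the mean of its probes, and its adjusted p was 0.118 to 0.905. Of 18 alternatives, calls were lost in 6 for TLE1, 7 for GSK3B, 1 for BMP4 and JAG1 (the methods' t-test), 2 for FRAT2, 4 for AMER1, 5 for DVL3, 7 for CSNK1E and HDAC2, 8 for SIAH1, TLE5 and EPCAM, 9 for CCND1 and 12 for BIRC5. Calls were gained in 9 for KRT19, 6 for CD44, 5 for TLE2 and 1 for TLE3 and AXIN2. CDH1, SOX9 and CD68 lost theirs in 0, and RNF43 in 0 of the 17 that tested it. Signal over background limited the 9 member probes at background, among them those of APC, GSK3A and LEF1. For them no statement on level or difference can be made.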
